A study of Rattus norvegicus with 6 samples.

Results

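The transcripts described here belong to 3 protein stress programmes in rat kidney: the heat shock response, the endoplasmic reticulum (ER) stress response and autophagy. The list holds 50 genes, chosen by symbol for their place in these programmes, with earlier results of these data already known. Of the 50, 47 were matched to at least 1 array probe through its RefSeq accession and 46 passed the filter on dim probes, among 17892 features tested on the array. Kidney samples from rats treated with Bailing Capsule, a fermented Cordyceps preparation, were compared with kidney samples from diabetic rats, 3 of each and all at an age of 21 weeks, on Agilent one-colour arrays hybridised with Cy3-labelled RNA. The labels give neither dose, treatment length, sex nor strain, and they do not state whether the treated rats had diabetes or how it was induced. An untreated, non-diabetic group was not analysed here. Nothing in the labels says how the 3 replicates of a group were obtained beyond their being separate samples, and a p-value here reflects only how much these samples scatter, which may be technical.

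Cells meet damaged proteins with linked programmes. In the heat shock response the transcription factor HSF1 binds heat shock elements in DNA and induces cytosolic and mitochondrial chaperones that refold or hold other proteins. In the ER, the sensors IRE1, PERK and ATF6 answer unfolded proteins by raising ER chaperones and degradation factors and, through ATF4 and CHOP, amino acid and cell death genes, while autophagy encloses cytoplasm in membranes and delivers it to lysosomes under the restraint of the kinase complex mTORC1. All 3 programmes are active in the proximal tubule and podocyte, cells with a heavy load of protein uptake, secretion or repair. Transcripts report only part of this, since autophagy and the ER sensors are controlled largely at the level of proteins.

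No gene of the 3 programmes passed the test between Bailing Capsule and diabetic kidneys. With limma, 0 of 46 members had an adjusted p under 0.05, and the lowest adjusted p was 0.605, whereas 57 of all 17892 features were called, which is 0.319%. At an unadjusted p under 0.05 there was 1 member, Ddit4, or 2.17% of members, against 7.55% of all features. The members' log2 fold changes, Bailing Capsule minus diabetic, ran between -0.49 and 0.85 with a median of -0.11, and 30 of 46 were negative. Over all features the median was -0.09 and 62.1% were negative, so the direction of the members was close to that of the array as a whole. In tissue RNA, fewer cells of a type and less RNA per cell cannot be told apart.

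The arrays set how much could be seen. A 95% interval of a member's log2 fold change reached a median of 0.62 to either side. Wholly within a 2-fold difference in either direction lay 34 of the 46 intervals, where 63.3% of all features did. The other 12 members could differ by more than 2-fold between the groups within their intervals. All these intervals are from the fit with no block for the scan sets described below, and they hold only for that fit. Groups did not overlap for 2 members that were higher in Bailing Capsule kidneys, Atg3 and Ddit4, or 4.35%, where 4.58% of all features showed this. They did not overlap for 2 members that were lower, Hsp90b1 and Lamp2, also 4.35%, where 7.06% of all features did. These shares are near or below the background.

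**Figure D1:**
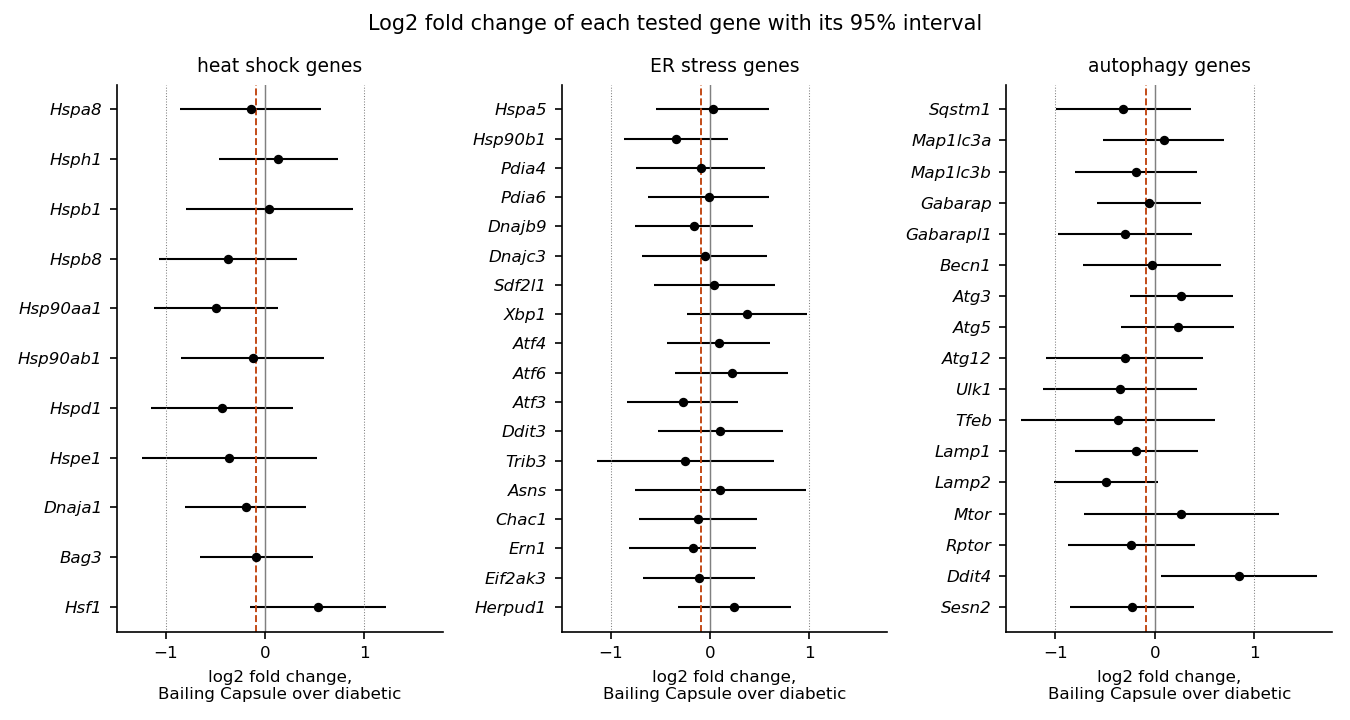
Log2 fold change, Bailing Capsule minus diabetic, of the 46 tested genes with 95% intervals, one panel for each programme. The dashed line marks the median of all features, -0.09, the dotted lines mark 2-fold differences, and Ddit4 is the one gene whose interval does not include 0.

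The heat shock genes are given first. Of 14 listed, 11 were tested, with a median log2 fold change of -0.14, 3 positive and 8 negative, and a median of -0.02 under quantile normalization. The inducible HSP70 genes Hspa1a and Hspa1b and the HSP70 co-chaperone gene Dnajb1 had no probe matched here, so the transcripts most often used as a readout of heat shock are not among the values. Hsf1, which encodes the master transcription factor of the response, had -1.81, -0.69 and -1.32 on the Bailing Capsule arrays, against -1.84, -1.72 and -1.85 on the diabetic arrays, in log2 units relative to the 75th percentile of each array. The second Bailing Capsule array was far above the diabetic range and the first lay inside it, so the groups overlap. The difference was 0.53 (SE 0.31, adjusted p = 0.805), and 0.24 without Bailing Capsule replicate 2.

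Hspa8, Hspd1, Hspe1, Dnaja1 and Hsph1 carry a heat shock element in the promoter window that RefSeq gives for each gene in build GRCr8, 250 bases before to 50 after the start. The search was for 3 units in a row, GAANNTTCNNGAA or TTCNNGAANNTTC, which together cover both strands. Of 27457 rat promoters 0.736% held one, and 40 of the 50 members had a promoter in the table, 5 of them with the element. Hspa8, the constitutive HSP70, and Hspd1, the mitochondrial chaperonin HSP60, are shown as the cytosolic and the mitochondrial example, each with 2 matches. Capitals mark the matches. Hspa8 lies on the plus strand at chr8:50080264-50080563 and Hspd1 on the minus strand at chr9:64083988-64084287.
Hspa8: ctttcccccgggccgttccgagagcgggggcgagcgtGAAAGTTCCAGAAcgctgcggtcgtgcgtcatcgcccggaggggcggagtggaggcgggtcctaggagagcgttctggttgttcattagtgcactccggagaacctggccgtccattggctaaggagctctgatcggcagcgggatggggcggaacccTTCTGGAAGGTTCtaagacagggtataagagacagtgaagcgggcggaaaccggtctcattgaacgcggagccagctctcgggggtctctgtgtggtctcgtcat
Hspd1: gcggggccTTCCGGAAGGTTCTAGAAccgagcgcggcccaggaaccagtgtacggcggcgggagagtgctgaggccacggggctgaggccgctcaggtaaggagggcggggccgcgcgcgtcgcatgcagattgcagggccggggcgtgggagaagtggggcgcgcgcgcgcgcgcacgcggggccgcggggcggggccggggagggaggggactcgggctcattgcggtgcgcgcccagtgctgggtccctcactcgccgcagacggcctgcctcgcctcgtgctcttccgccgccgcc
Hspe1, the HSP10 partner of HSP60, is transcribed away from Hspd1, and the 2 windows share 211 bases, including the heat shock element.

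For each of the 5 genes with this element the groups overlap. Hspd1 had 6.58, 5.88 and 5.99 on the Bailing Capsule arrays, against 6.13, 7.11 and 6.53 on the diabetic arrays, a difference of -0.44 (SE 0.32, adjusted p = 0.905). Hspe1 had 7.63, 6.32 and 6.78, against 6.71, 7.91 and 7.19, a difference of -0.36 (SE 0.40, adjusted p = 0.968). In both genes the first Bailing Capsule array and the second diabetic array were the highest of their groups, and Bailing Capsule replicate 2 and diabetic replicate 1 were the lowest of theirs. The brightest probe of Hspa8 had 7.43, 6.62 and 6.96 on the Bailing Capsule arrays, against 6.79, 7.66 and 6.99 on the diabetic arrays, with the same arrays high. Its difference was -0.14, and the other 3 probes gave -0.06, 0.26 and 0.22, so the probes of Hspa8 disagree in sign. Dnaja1, an HSP40 co-chaperone, had a difference of -0.20, and Hsph1, the HSP110 nucleotide exchange factor, 0.13.

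Hsp90aa1, the stress-inducible cytosolic HSP90, had the lowest log2 fold change of all members. Its values were 4.72, 4.30 and 4.32 on the Bailing Capsule arrays, against 4.52, 5.26 and 5.05 on the diabetic arrays. The first diabetic array lay among the Bailing Capsule arrays and the other two lay above them. The difference was -0.49 (95% interval -1.12 to 0.13, adjusted p = 0.797). Its other probes gave -0.52 and -0.61. On the probe with -0.52 the groups did not overlap, at 3.57, 3.56 and 3.73 on the Bailing Capsule arrays, against 4.11, 4.09 and 4.23 on the diabetic arrays. That probe had an adjusted p of 0.629 in a limma fit of single probes, and 7.06% of all features were separated in this direction. Hsp90ab1, the constitutive HSP90, had -0.13.

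The small heat shock proteins hold unfolded proteins without using ATP. Hspb8, which works with the co-chaperone BAG3 in selective autophagy, had -5.71, -4.70 and -4.97 on the Bailing Capsule arrays, against -5.05, -4.49 and -4.73 on the diabetic arrays. The first Bailing Capsule array was the lowest and the groups overlap, with a difference of -0.37 (SE 0.31, adjusted p = 0.930). Hspb8 was well above background on 2 Bailing Capsule and 3 diabetic arrays. It passed the filter only through the diabetic group, where it was higher, so its difference is not support for a change. Hspb1, or HSP27, had a difference of 0.04 with an interval of -0.80 to 0.88 over 5 arrays, since the second diabetic array had no value. Bag3 itself had -0.09 (95% interval -0.66 to 0.48).

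Under 75th percentile scaling the ER stress genes had the smallest spread within groups of the 3 programmes, as a description with no test. All 18 were tested, 8 with a positive and 10 with a negative log2 fold change, and the median was -0.03. The median standard deviation within groups was 0.279, against 0.418 for the heat shock genes and 0.343 for the autophagy genes. This order changed under quantile normalization, where the heat shock genes had the smallest median. Of the 18 intervals 17 lay within a 2-fold difference in either direction, where 63.3% of all features did. The exception was Trib3.

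Some promoters of the ER stress genes held elements named after this response. The ER stress response element, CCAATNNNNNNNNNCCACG, was found on either strand in 0.0765% of rat promoters and in those of Hspa5, Hsp90b1, Xbp1 and Dnajc3. Herpud1 held the second form, ATTGG and CCACG with 1 base of any kind between them, which 0.0546% of promoters hold and which shares CCACG with the first. The C/EBP-ATF response element bound by ATF4, TGATGNAA, was in the promoters of Herpud1, Chac1 and Trib3 and in 3.82% of all promoters. The windows of Hspa5, Herpud1 and Trib3 are shown because they carry these 3 elements, with the matches in capitals. Hspa5 lies on the plus strand at chr3:38452766-38453065, Herpud1 on the minus strand at chr19:10614658-10614957 and Trib3 on the minus strand at chr3:161275484-161275783.
Hspa5: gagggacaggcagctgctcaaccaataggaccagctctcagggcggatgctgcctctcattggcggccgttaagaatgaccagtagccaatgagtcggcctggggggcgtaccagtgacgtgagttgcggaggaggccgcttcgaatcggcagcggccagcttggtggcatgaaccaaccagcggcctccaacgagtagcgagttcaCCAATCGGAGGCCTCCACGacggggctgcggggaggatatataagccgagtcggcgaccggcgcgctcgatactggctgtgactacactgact
Herpud1: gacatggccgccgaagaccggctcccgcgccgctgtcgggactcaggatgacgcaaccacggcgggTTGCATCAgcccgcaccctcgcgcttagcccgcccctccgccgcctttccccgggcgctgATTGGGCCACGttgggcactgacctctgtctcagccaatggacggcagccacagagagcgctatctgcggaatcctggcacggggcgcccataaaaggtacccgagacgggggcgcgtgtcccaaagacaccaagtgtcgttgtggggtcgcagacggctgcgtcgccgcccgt
Trib3: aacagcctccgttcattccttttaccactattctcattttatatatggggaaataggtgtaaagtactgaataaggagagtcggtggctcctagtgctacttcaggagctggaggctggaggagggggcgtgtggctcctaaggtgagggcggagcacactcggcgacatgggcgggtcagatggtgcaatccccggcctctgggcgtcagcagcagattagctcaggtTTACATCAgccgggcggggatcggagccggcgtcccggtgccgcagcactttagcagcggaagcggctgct

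Hspa5 encodes BiP, the HSP70 of the ER and the usual gauge of ER stress. Its values were 4.71, 4.22 and 4.34 on the Bailing Capsule arrays, against 4.46, 4.55 and 4.18 on the diabetic arrays. The arrays of the groups interleave, and the difference was 0.03 (95% interval -0.54 to 0.60, adjusted p = 0.995). A difference of 2-fold in either direction lies outside that interval.

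Hsp90b1, which encodes the ER HSP90 known as GRP94, was the ER gene with the smallest p. It had 1.81, 1.83 and 1.66 on the Bailing Capsule arrays, against 1.98, 2.17 and 2.17 on the diabetic arrays. Every Bailing Capsule array lay below every diabetic array, with a mean difference of -0.34 (SE 0.24, adjusted p = 0.886). Under quantile normalization its groups overlapped, with a difference of -0.28. Herpud1, which recruits the degradation machinery to the ER membrane, had 4.62, 4.54 and 4.32, against 4.35, 4.47 and 3.93, with overlapping groups and a difference of 0.25 (SE 0.26, adjusted p = 0.963). The other chaperones and folding factors had log2 fold changes between -0.16 for Dnajb9, the BiP co-chaperone ERdj4, and 0.05 for Sdf2l1, a component of a BiP co-chaperone complex. Among them Pdia4 and Pdia6, protein disulfide isomerases, had -0.09 and -0.01, and Dnajc3, the co-chaperone p58IPK, had -0.05.

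The sensors and transcription factors gave small differences of both signs. Xbp1, whose mRNA is spliced by IRE1 to give an active factor, had 3.72, 3.43 and 3.82 on the Bailing Capsule arrays, against 3.62, 3.30 and 2.93 on the diabetic arrays. The groups overlap through the first diabetic array, and the difference was 0.37 (SE 0.27, adjusted p = 0.901). Atf3, an early-induced stress factor, had -1.18, -0.81 and -0.76, against -0.82, -0.66 and -0.45, with a difference of -0.28 (SE 0.25, adjusted p = 0.949). Its groups overlap only through the first diabetic array. Atf4, the factor translated when eIF2alpha is phosphorylated, had a difference of 0.09 (95% interval -0.43 to 0.61), and Ddit3, which encodes CHOP, had 0.10. The 3 sensor genes had 0.22 for Atf6, -0.11 for Eif2ak3, which encodes PERK, and -0.17 for Ern1, which encodes IRE1.

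Targets of ATF4 and CHOP gave differences of both signs. Asns, the asparagine synthetase, had a difference of 0.10, Chac1, which degrades glutathione, had -0.12, and Trib3, a pseudokinase that binds AKT, had -0.25. Trib3 was 2.66, 2.36 and 2.22 in Bailing Capsule kidneys, against 2.02 and 3.30 on the diabetic arrays 1 and 3. The second diabetic array had no value, the diabetic values lie on both sides of the Bailing Capsule values, and the interval of -1.14 to 0.64 is among the wider ones.

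**Figure D2:**
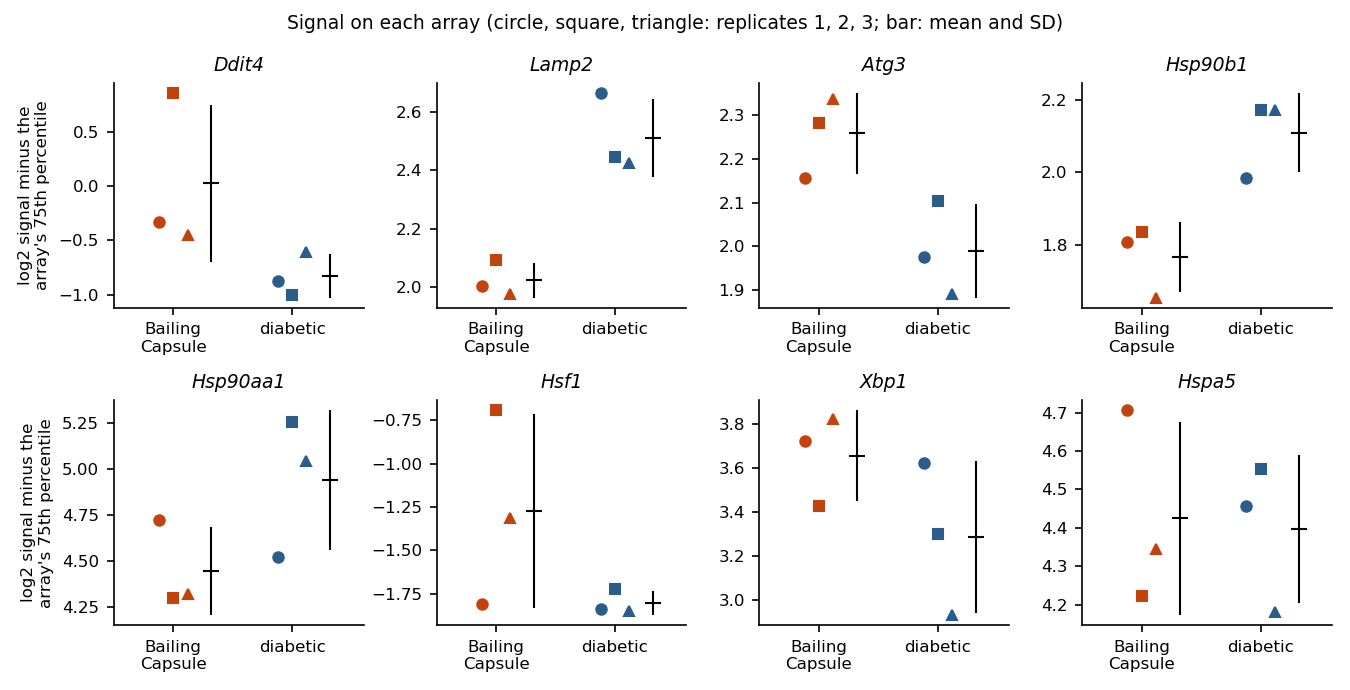
Log2 signal minus the array's 75th percentile for 8 genes, each point being 1 array and each bar the group mean with its SD, with Bailing Capsule left of diabetic. Points of the groups do not overlap for Ddit4, Lamp2, Atg3 and Hsp90b1 and overlap for Hsp90aa1, Hsf1, Xbp1 and Hspa5.

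Autophagy held the member furthest from 0, Ddit4. Of 18 listed genes 17 were tested, 5 with a positive and 12 with a negative log2 fold change, and the median was -0.19, or -0.06 under quantile normalization. Atg7, the activating enzyme of both conjugation systems, was well above background on 2 arrays of each group and was not tested. Its measured means were -5.31 in Bailing Capsule kidneys and -4.82 in diabetic kidneys.

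Ddit4 encodes REDD1, an inhibitor of mTORC1 that is induced by energy stress, hypoxia and glucocorticoids. It had -0.33, 0.85 and -0.45 on the Bailing Capsule arrays, against -0.87, -0.998 and -0.61 on the diabetic arrays. Every Bailing Capsule array was above every diabetic array, and the second Bailing Capsule array stood well above the other two. The difference was 0.85 (SE 0.35, 95% interval 0.06 to 1.64), with an unadjusted p of 0.037 and an adjusted p of 0.605. Without Bailing Capsule replicate 2 it was 0.43, and over all arrays left out in turn it ran between 0.43 and 1.09. A second Ddit4 probe was well above background on 1 Bailing Capsule array and on 0 diabetic arrays, and no fold is given for it. Sesn2, another stress-induced inhibitor of mTORC1, had a difference of -0.23, Mtor itself 0.27 and its scaffold Rptor -0.24. Mtor had a wide interval, -0.72 to 1.25.

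Lamp2 encodes a major protein of the lysosomal membrane that is needed for fusion with autophagosomes. It had 2.002, 2.09 and 1.98 on the Bailing Capsule arrays, against 2.67, 2.45 and 2.43 on the diabetic arrays. The 3 Bailing Capsule arrays lay close together and below all diabetic arrays. The difference was -0.49 (SE 0.24, 95% interval -1.01 to 0.03, adjusted p = 0.702), and it stayed between -0.53 and -0.41 when single arrays were left out. The related gene Lamp1 had -0.18 with overlapping groups, and Tfeb, the transcription factor of lysosomal genes, had -0.37 with an interval of -1.34 to 0.61. The element through which TFEB acts, GTCAC followed directly by GTGAC, was in 0.277% of all promoters and in 0 of the 40 member promoters.

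Among the conjugation enzymes Atg3, which joins LC3 to lipid, had 2.16, 2.28 and 2.34 on the Bailing Capsule arrays, against 1.98, 2.10 and 1.89 on the diabetic arrays. The Bailing Capsule arrays were all higher, by 0.27 on average (SE 0.23, adjusted p = 0.941). Atg5, a part of the conjugating complex, had a difference of 0.23 on its brightest probe and 0.54 on another. Its partner Atg12 had -0.30 with an interval of -1.10 to 0.49. Of the initiation genes, Becn1, a subunit of the lipid kinase complex, had -0.03 and Ulk1, the initiating kinase, -0.35.

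The cargo receptor gene Sqstm1, which encodes p62, had 2.55, 2.70 and 2.23 on the Bailing Capsule arrays, against 2.29, 3.30 and 2.83 on the diabetic arrays. The groups overlap, with a difference of -0.31 (SE 0.30, adjusted p = 0.956). Another Sqstm1 probe gave -0.46. Of the ATG8 family, whose proteins coat the autophagosome, Map1lc3a had 0.09, Map1lc3b -0.19, Gabarap -0.06 and Gabarapl1 -0.30. The brightest probe of Map1lc3b had 2.64, 2.38 and 2.18 on the Bailing Capsule arrays, against 2.303, 2.98 and 2.48 on the diabetic arrays. Its second probe gave 0.11, so the probes disagree in sign. Gabarap was the 1 member whose interval, -0.58 to 0.47, lay within 1.5-fold in either direction.

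Single arrays stood out among the members. The 44 members with a value on all 6 arrays had their highest or lowest value most often on the second Bailing Capsule array, for 20 members, and on the second diabetic array, for 19, against 9 to 15 on the others. As a median over the heat shock genes, the Bailing Capsule arrays stood -0.01, -0.35 and -0.22 from the diabetic mean and the diabetic arrays -0.29, 0.26 and -0.04. For the ER stress genes the medians were 0.06, -0.08 and -0.03 on the Bailing Capsule arrays and -0.10, 0.07 and -0.03 on the diabetic arrays. For autophagy they were -0.22, 0.14 and -0.19 on the Bailing Capsule arrays and -0.17, 0.11 and -0.01 on the diabetic arrays. In each programme the groups overlap.

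**Figure D3:**
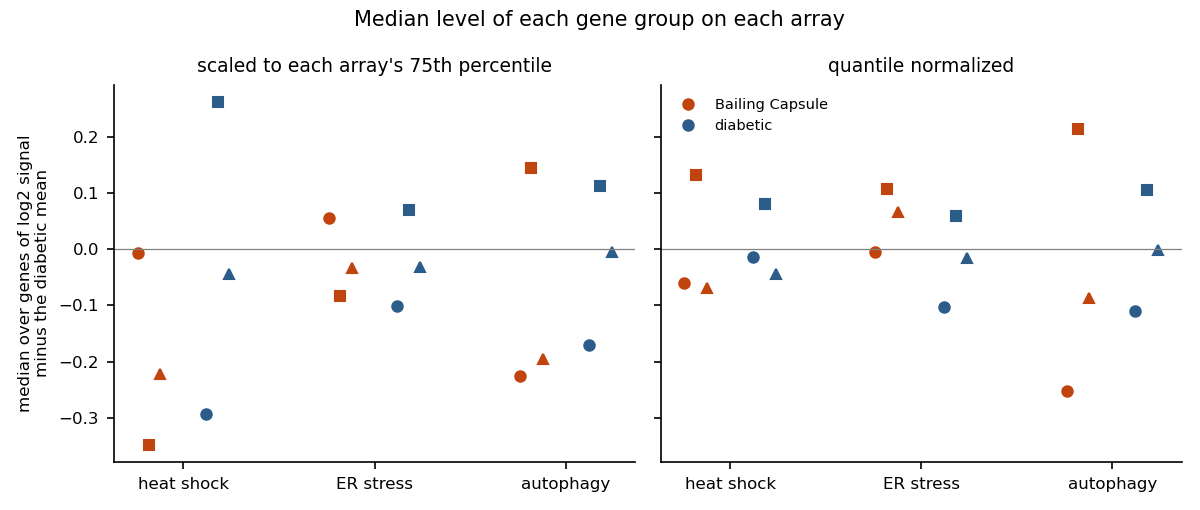
Median deviation from the diabetic mean (log2) of each programme's genes on each array, with Bailing Capsule arrays left of diabetic arrays, under 75th percentile scaling and under quantile normalization. The groups overlap in every panel.

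Among the members, the deviation of an array went with how bright a gene was. Across the 44 genes, which share the arrays and are not independent replicates, a gene's deviation correlated with its mean signal at 0.647, -0.620 and -0.075 on the Bailing Capsule arrays and at -0.141, 0.510 and -0.182 on the diabetic arrays. Over the 17356 features with a value on all 6 arrays, these correlations were weaker. They were 0.079, -0.261 and 0.035 on the Bailing Capsule arrays and 0.129, 0.0995 and -0.032 on the diabetic arrays. Bright genes such as Hspa8, Hspd1, Hspe1, Gabarapl1 and Ulk1 were high together on the first Bailing Capsule and second diabetic arrays. Ulk1 had 7.04, 6.06 and 6.41 on the Bailing Capsule arrays, against 6.32, 7.39 and 6.86 on the diabetic arrays. Quantile normalization gives all arrays 1 distribution of signals. It brought the members' correlations to 0.472, -0.275 and 0.035 on the Bailing Capsule arrays and to -0.126, 0.232 and -0.278 on the diabetic arrays. Of the members 10 had a mean log2 signal more than 4 above the 75th percentile, a bound chosen after the values were seen. Their median standard deviation within groups was 0.128 under quantile normalization and 0.414 under 75th percentile scaling, and it was smaller under quantile normalization in 9 of 10. Quantile normalization sets the highest ranks of all arrays to the same values, so a smaller spread among bright genes is in part built in. The median log2 fold change of these 10 members was -0.03 under quantile normalization and -0.25 under 75th percentile scaling. Hspe1, for one, had -0.02 and Ulk1 -0.06 under quantile normalization. The median log2 fold change of a programme under quantile normalization was -0.02 for heat shock, with 5 of 11 positive, 0.01 for ER stress, with 9 of 18 positive, and -0.06 for autophagy, with 6 of 17 positive. Under 75th percentile scaling these medians were -0.14, -0.03 and -0.19. Over all 46 members the median standard deviation was 0.272 under quantile normalization and 0.316 under 75th percentile scaling.

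**Figure D4:**
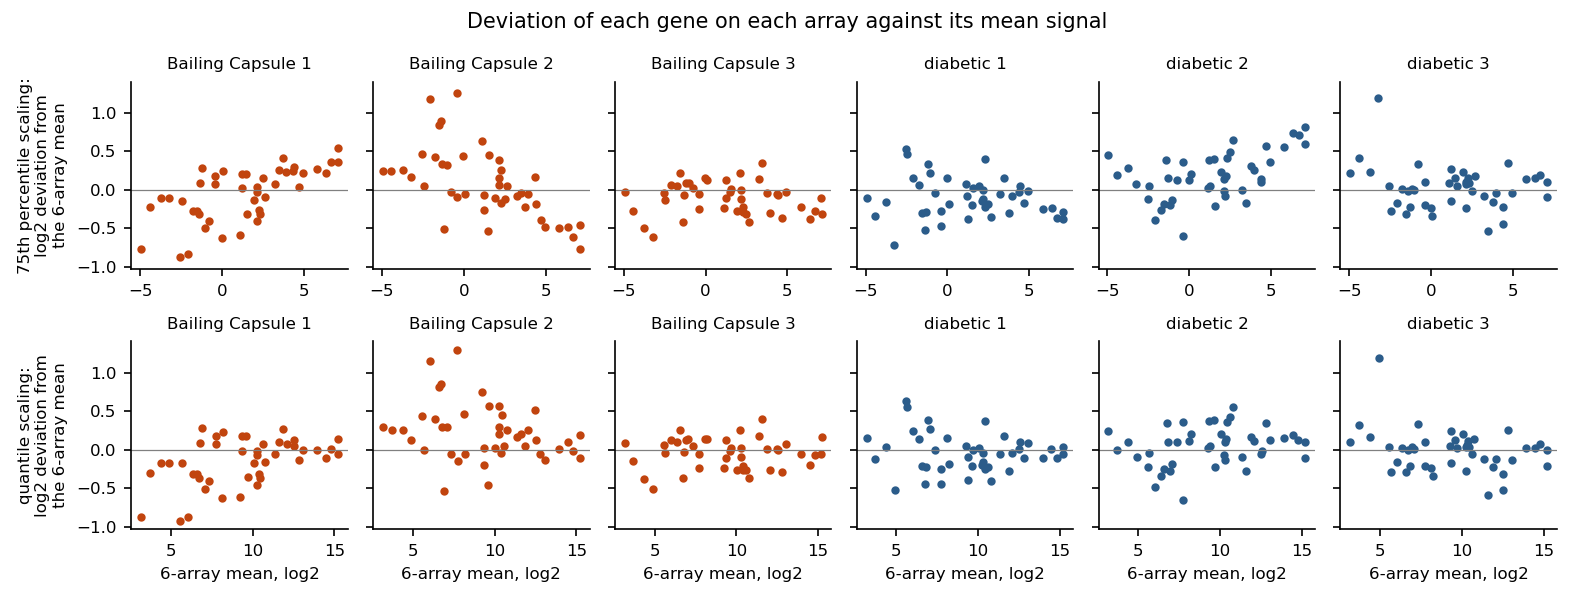
Deviation of each gene from its mean over the 6 arrays (log2) against that mean signal (log2), one panel for each array, with Bailing Capsule arrays first, under both scalings. Bright genes lie high on Bailing Capsule array 1 and diabetic array 2 and low on Bailing Capsule array 2, and less so under quantile normalization.

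By the scan date in the file headers the arrays fell into 2 sets, which are taken here as slides. No slide label was read. All 3 Bailing Capsule arrays and the first diabetic array were in 1 set, and the other held diabetic arrays 2 and 3. With slide as a block the comparison rests on 1 diabetic array, and the members' signs turned with those of the whole array. Then 31 of 46 members, or 67.4%, were positive, against 16, or 34.8%, without the block, and of all features 59.4% were positive, against 37.9% without it. The median log2 fold change with the block was 0.02 for heat shock, 0.07 for ER stress and 0.10 for autophagy, with 0.09 over all features. Ddit4 had 0.89 and Lamp2 -0.64 with the block, and Hsf1 0.57, while Hsp90aa1 had -0.07 and Xbp1 0.03.

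Other genes of the same pathways were read from 5 further lists. In them, 164 of 197 genes were tested with limma and 0 were called, where 0.319% of all features were. At an unadjusted p under 0.05 there were 2, or 1.22%, against 7.55% of all features. Groups did not overlap for 2 of the 164 with Bailing Capsule higher, where 4.58% of all features showed this. They did not overlap for 8 of the 164 with Bailing Capsule lower, where 7.06% of all features did. Of further cytosolic and mitochondrial chaperones, 44 of 48 were tested, 12 with a positive log2 fold change, with a median of -0.08. Of further ER chaperones and degradation factors, 31 of 38 were tested, 11 positive, with a median of -0.05. Fkbp5, an HSP90 co-chaperone induced by glucocorticoids, had a difference of 0.83 (SE 0.40, adjusted p = 0.706), and 0.09 with slide as a block. Hspa2 had 0.63, the small heat shock protein gene Cryab 0.50, the ER stress gene Creld2 0.60, Derl3, of ER degradation, 0.49, and the translocon gene Ssr1 -0.38, none of them past the test.

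The integrated stress response list, 27 genes tested of 32, held the lowest adjusted p. Gdf15, a secreted stress cytokine induced through ATF4 and CHOP, had -1.99, -2.41 and -1.55 on the Bailing Capsule arrays, against -1.14, -0.46 and -1.07 on the diabetic arrays. All Bailing Capsule arrays lay below all diabetic arrays, with a difference of -1.09 (SE 0.31, 95% interval -1.78 to -0.41) that missed the threshold at an adjusted p of 0.275. With slide as a block its difference was -0.85. Cebpb, a transcription factor induced in ER stress, had -0.64, and Nars1, an aminoacyl-tRNA synthetase, -0.61. The list had a median of -0.06, with 9 of 27 positive.

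Of 52 further autophagy and lysosome genes 43 were tested, 14 of them positive, with a median of -0.12. Ctsd, the lysosomal protease cathepsin D, had 4.88, 3.82 and 4.25 on the Bailing Capsule arrays, against 5.22, 5.002 and 4.97 on the diabetic arrays. The groups did not overlap, and the difference was -0.75 (SE 0.30, adjusted p = 0.579). Lipa, the lysosomal acid lipase, had -0.58, and Mitf, a transcription factor related to TFEB, -0.37. Of the mTORC1 pathway, 19 of 27 genes were tested, 8 positive, with a median of -0.06. Its smallest p-values belonged to Rragd, a GTPase that recruits mTORC1 to lysosomes (-0.38), Prkaa2, a catalytic subunit of AMPK (0.51), and Lamtor2, of the lysosomal anchor of mTORC1 (-0.47). None of these passed the test.

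The kidney label was checked against 10 kidney markers. Of these 9 were tested, among them the proximal tubule transporter Slc34a1, uromodulin (Umod) and the podocyte gene Nphs1, and all were well above background on all 6 arrays, with 0 called. Markers of other tissues were measured too, and 0 of them were called by limma without a block, where 0.319% of all features were. An unadjusted p under 0.05 with limma was found for 7.55% of all features, the share to set beside the count of each list below. Over 6 tested liver markers the median log2 fold change was -1.02, and 5 had an unadjusted p under 0.05. Of these 4 were lower and 1 higher in Bailing Capsule kidneys. Among the lower ones Fgb had a difference of -1.74 and Apoc3 -0.92, both with groups that did not overlap. The higher one was Cyp2c11, a cytochrome P450 of male rat liver, with a difference of 1.93 (SE 0.45, adjusted p = 0.163) and groups that did not overlap. With slide as a block, resting on 1 diabetic array, Cyp2c11 had a difference of 2.91. On single arrays the liver median stood -0.78, -1.06 and -1.31 from the diabetic mean in Bailing Capsule kidneys and -0.42, 0.24 and 0.09 in diabetic kidneys. Over 7 adipocyte markers the median was -0.71, and 3 had an unadjusted p under 0.05. Of these Cidea had -1.90 and Adrb3 -1.89, and Lpl, the lipoprotein lipase, had 0.73. The adipocyte median stood 0.14, -1.59 and -0.53 from the diabetic mean on the Bailing Capsule arrays and 0.21, 0.01 and -0.19 on the diabetic arrays, so the groups overlap and the second Bailing Capsule array is the lowest. The median was 0.69 over 5 blood markers, with 3 at an unadjusted p under 0.05, and -0.04 over 8 leukocyte markers, with 2. Their part in the values of the stress genes was not tested.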

How the data were processed

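RNA of 6 rat kidney samples was measured on Agilent one-colour arrays. Per the file headers, the deposited scanner files give background-subtracted spot intensity, as written by Feature Extraction 11.0.1.1 and not scaled across arrays. The deposited table of log2 values has equal column medians and tracks its own arrays (r = 0.983 to 0.994). Its making by the authors is not given in the sources used here. It served as an alternative.

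Outlier spots, 597 to 1091 per array, were left out, spots of a probe averaged, and log2 signals taken minus each array's 75th percentile. No spot was saturated (0 on each array), and 65.0% to 73.7% of probes were well above background. Precision is limited by the number of arrays. A probe was kept where at least 50% of its spots were well above background on all 3 arrays of a group, with at least 2 values per group, and the brightest kept probe stood for a gene. Accessions were matched, without versions, to a RefSeq table of build GRCr8, which named 18005 of 30367 probes. Groups were compared with limma 3.58.1 (lmFit and eBayes) in R 4.3.3, with Benjamini-Hochberg adjustment over 17892 features and a threshold of 0.05. Medians of lists are descriptions with no test.

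The members and lists were chosen with earlier results of these data known. Per-array values are given for the 4 members of each programme with the smallest p and for those whose probes differ in sign, and of each further list the 3 genes of smallest p are named. Values by array of Hspa5, Hspe1, Trib3, Ulk1, Gdf15, Ctsd and Egr1 were added after their values were seen, as were the names of markers of other tissues and the bound on bright genes. Alternatives were quantile and median scaling, normexp with an offset of 50 on the median spot signal (a mean signal was not used here), the deposited table, other filters and probe rules, another variance prior, blocks for slide and replicate number, and leaving out each array.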

Additional observations from a re-analysis of the deposited data

How the results depend on the processing

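With 3 arrays per group and a median 95% interval of 0.62 to either side, differences under about that size were not detectable for most members. That interval is not adjusted for the number of features. Larger differences also missed the adjusted threshold, such as 0.85 for Ddit4 and -1.09 for Gdf15. Members called stayed at 0 under all 17 alternatives, and the lowest adjusted p of a member over them was 0.265, without Bailing Capsule replicate 1. Of 777 member values recomputed, 737 moved by less than 1 standard deviation between replicates and 40 by more. Another variance prior cannot change a log2 fold change, and the replicate block cannot where all arrays have a value. Such values are among the 737. The sign changed under at least 1 alternative for 33 of 46 members and under none for 13, and slide as a block changed it for 19 and quantile normalization for 4. The ER stress median, -0.03, became 0.09 under normexp with quantile normalization (0.086), 0.07 in the deposited table (0.066), 0.07 with slide as a block (0.067) and 0.07 with quantile normalization and slide as a block (0.073), the last of these chosen after seeing the data. The autophagy median, -0.19, became 0.10 with slide as a block and 0.11 with both. When single arrays were left out, the medians ran between -0.30 and -0.04 for heat shock, -0.10 and 0.04 for ER stress and -0.33 and -0.02 for autophagy. The 57 features called became 15 under normexp with quantile normalization, 6 with no filter on dim probes, 14 with quantile normalization and slide as a block, and between 17 (without diabetic replicate 2) and 195 (without diabetic replicate 1) with single arrays left out. It was 141 without Bailing Capsule replicate 1, 28 without Bailing Capsule replicate 2, 33 without Bailing Capsule replicate 3 and 18 without diabetic replicate 3. Same-numbered arrays correlated at -0.181, -0.140 and 0.0194 in their deviations from the group means. With 3 arrays per group, whose deviations sum to 0, this cannot decide whether replicate numbers pair the samples. With the replicate block 6 features and 0 members were called. The causes of these changes were not tested.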

Other observations

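Immediate early genes, which answer many kinds of stress within minutes and also tissue handling, were a separate list of 9 tested genes with a median log2 fold change of -0.04. With limma 0 were called, and 1, Egr1, had an unadjusted p under 0.05. Egr1, a zinc finger factor, had -2.97, -2.44 and -2.34 on the Bailing Capsule arrays, against -2.72, -0.72 and -0.79 on the diabetic arrays. The first diabetic array lay among the Bailing Capsule arrays and the other two lay well above them, with a difference of -1.17 (SE 0.49, adjusted p = 0.597 with limma) and 0.13 with slide as a block. Fos had a difference of 0.49 and Jun 0.29 (adjusted p = 0.919 with limma for Jun). For Jun every Bailing Capsule array was above every diabetic array, as was so for 4.58% of all features.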
